A study of Mus musculus with 2 samples.

Results

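Pigr and Ccl28, the epithelial genes that move antibody into the gut lumen and draw antibody-secreting cells to the mucosa, were examined beside B and plasma cell genes in sorted intestinal stem cells with and without circPan3, a circular RNA made from the Pan3 gene. The set held 8 genes: Pigr and Ccl28 on the epithelial side, and Ccr10, Jchain, Mzb1, Cd79a, Cd79b and Cd74 on the B and plasma cell side. It was chosen with the values of these arrays known, so all values of the 8 are a description and none is tested. Members were taken from rows whose annotation gives that gene alone, with the brightest row standing for a symbol. By this rule 7 of the 8 had a row, out of 19690 named genes of the table. Cd74 shared its transcript cluster with the microRNA gene Mir5107, and the value of that cluster is given separately.

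The arrays compared intestinal stem cells of circPan3+/+;Lgr5GFP-CreERT2 mice with those of circPan3-/-;Lgr5GFP-CreERT2 mice. Both genotypes were 8 weeks of age and carried the Lgr5 allele that yields green fluorescent protein and an inducible Cre, so the sort depends on the activity of the Lgr5 locus. GFP-positive cells were flow sorted from the small intestine, and total RNA was hybridised to Clariom D mouse arrays, with 1 array per genotype. The sources used here do not say how the circle was removed, nor whether a sample was 1 mouse or pooled mice.

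Secretory IgA is the main antibody of the gut surface. Plasma cells below the epithelium secrete it as a dimer held together by the J chain, the product of Jchain. The polymeric immunoglobulin receptor, the product of Pigr, takes up the dimer at the basal side of epithelial cells, carries it across and is cleaved at the lumen, where part of it stays bound to the antibody. CCL28 is a chemokine of mucosal epithelia, and its receptor CCR10 stands on IgA plasma cells and their precursors. MZB1 assists antibody assembly in the endoplasmic reticulum, CD79A and CD79B form the signalling part of the B cell receptor, and CD74 is the chaperone of MHC class II molecules.

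Since each group held a single array, no difference has an error, and what is compared is the pair of arrays rather than the genotypes. Differences are circPan3-/- minus circPan3+/+ in log2 units of the deposited signal. Named genes as a whole leaned to the circPan3-/- side, with a median difference of 0.36 over the 14618 whose mean level reached the median of all rows (2.53), and differences are to be read against that value. At a threshold of 2-fold, 9.69% of these 14618 genes were higher and 2.74% lower in the cells without the circle. After subtraction of the median, the shares were 3.85% higher and 4.95% lower. A control limit was set on each array at the 95th percentile of its negative control rows, 5.06 in circPan3+/+ and 5.56 in circPan3-/- cells. If the lower value of a gene was under the limit of its array, the fold is a bound, written as "at least" and measured from the higher value down to that limit. No fold is given where this leaves none. By these bounds, 3.7% of named genes were higher and 0.534% lower at 2-fold. Pan3 had signals of 4.84 and 5.64, but whether this row reads the circle was not examined, so it does not check the deletion. Of 10 stem cell markers that characterise the sort, 6 were at least 2-fold higher and 2 lower as deposited, with a median of 1.39. With bounds, 3 were higher and 2 lower, since Smoc2 and Rgmb among the 6 have no fold and Axin2 is left at least 1.88-fold. The lower genes were Lgr5, with 10.91 in circPan3+/+ and 7.02 in circPan3-/- cells, and Olfm4, with 11.53 and 10.28. Slc12a2, with 5.47 and 8.39, and Sox9, with 5.07 and 6.45, were higher between values above the limits. Ascl2, Smoc2, Rgmb and Tnfrsf19 did not reach the limit of either array. On the circPan3+/+ array 69.1% of all rows held a value that also stood in another row, against 4.20% on the other array, and whether the arrays were processed alike was not tested.

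The sequences before the starts of Pigr and Ccl28 are shown because these are the members that stood apart together. They are the 250 bases upstream of the RefSeq start in GRCm38.p6, on the plus strand of chr1:130826434-130826683 and chr13:119623569-119623818, respectively, and capitals mark a motif match.
Pigr: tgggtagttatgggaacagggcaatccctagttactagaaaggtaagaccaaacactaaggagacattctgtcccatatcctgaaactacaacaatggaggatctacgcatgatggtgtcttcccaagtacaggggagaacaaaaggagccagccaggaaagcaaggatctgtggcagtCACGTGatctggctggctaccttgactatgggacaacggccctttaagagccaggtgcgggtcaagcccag
Ccl28: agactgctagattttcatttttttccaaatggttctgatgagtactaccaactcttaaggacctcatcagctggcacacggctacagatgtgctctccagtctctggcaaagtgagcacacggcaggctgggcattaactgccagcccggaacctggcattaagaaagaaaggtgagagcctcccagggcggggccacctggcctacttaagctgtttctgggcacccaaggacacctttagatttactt
The capitals in the Pigr window spell the E-box CACGTG, a sequence that reads the same on both strands and that USF proteins can bind, with its first base 71 bases before the start. This E-box stood in 6.02% of all 32851 windows of the same length. The Ccl28 window held no match to any of the 8 motifs searched on both strands. The other motifs were the octamer ATGCAAAT, the IRF motif (GAAA, any 2 bases, GAAA), the STAT motif TTCNNNGAA, the STAT6 motif (TTC, any 4 bases, GAA), the NF-kB motif, the EBF motif CCCNNGGG and TATAAA, which stood in 1.6% (octamer) to 12.4% (TATAAA) of windows. No match was found for these 7 motifs in the Pigr window either, nor for any of the 8 in those of Jchain and Cd79a. Of 6 members looked up, 4 had an entry. GC content was 50.4% for Pigr and 50.8% for Ccl28, against a median of 52.4% over all windows.

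On the epithelial side, both genes had a higher signal in circPan3-/- cells. Pigr, the receptor that carries dimeric IgA across the epithelium, read 7.95 in circPan3+/+ and 10.47 in circPan3-/- cells. Both values lay above the control limits, and the difference was 2.51, or 5.70-fold. This placed Pigr at position 56 from the highest difference among the 14618 named genes. Ccl28, the chemokine of mucosal epithelia, had 2.99 in circPan3+/+ and 6.68 in circPan3-/- cells. Its circPan3+/+ value lay inside the range of the negative controls, at their percentile 74.3, while the circPan3-/- value exceeded its limit. The difference of 3.69 therefore starts from a value not above background, and what the limits leave is at least 3.07-fold. With the limit at the 99th percentile of the controls, no fold was left. Beyond the median of named genes, the differences were 2.16 for Pigr and 3.34 for Ccl28. After loess correction for mean level they were 1.99 and 3.25.

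**Figure D1:**
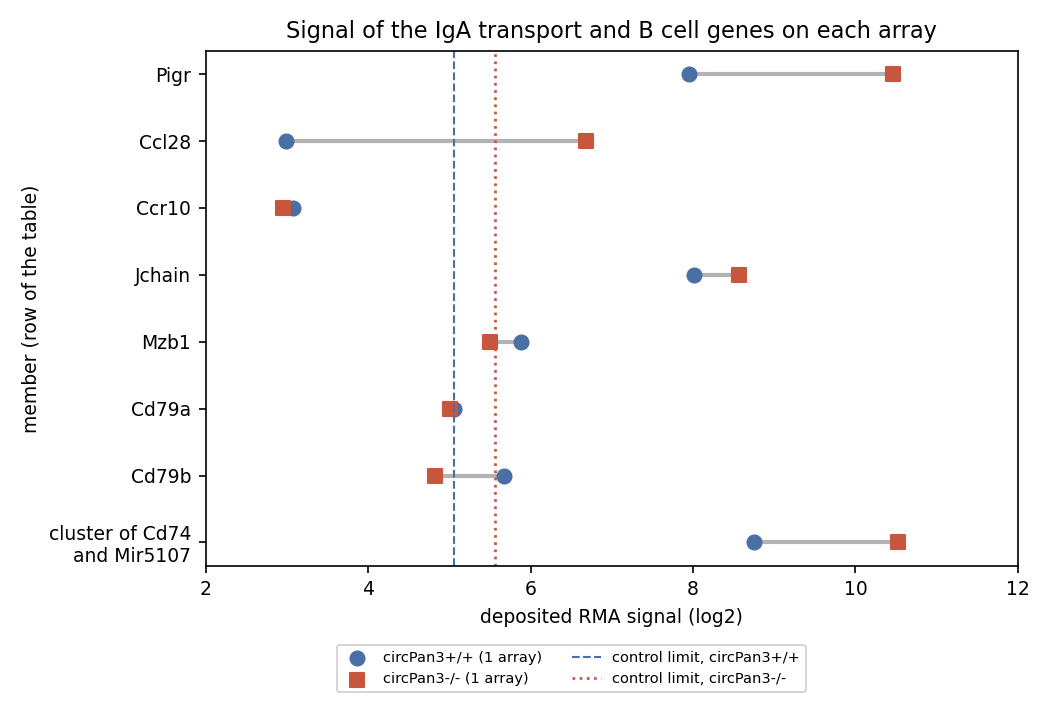
Deposited RMA signal (log2, horizontal axis) of each member in circPan3+/+ (circles) and circPan3-/- cells (squares), with a grey line joining the values and vertical lines at the control limits of 5.06 and 5.56. Pigr and Ccl28 are separated by 2.51 and 3.69, Jchain lies to the right of both limits with a separation of 0.55, and Ccr10 and Cd79a lie to the left of the limits on both arrays.

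The B and plasma cell members with a row of their own did not show a difference of this size. Of these 5, none was 2-fold apart in either direction as deposited, 4 had a difference below 0, and the same number lay below the median of named genes. Only Jchain was above the control limits on both arrays, so the values of the others are limited by background. The Cd74 and Mir5107 cluster, not counted here, was 3.41-fold higher in circPan3-/- cells. Over all 7 members, 2 were at least 2-fold higher, beside the 9.69% of named genes, and 0 were lower, beside the 2.74%. Since the genes were selected on this comparison, nothing is read from these shares.

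Among genes of antibody-secreting cells, Jchain, which joins IgA monomers, read 8.02 in circPan3+/+ and 8.57 in circPan3-/- cells. It was the single B or plasma cell member with its own row above the control limits on both arrays. Its difference of 0.55 was 0.20 beyond the median of named genes and 0.03 after loess. Mzb1, the assembly factor of plasma cells and marginal zone B cells, had 5.88 and 5.50, a difference of -0.39. The circPan3-/- value of Mzb1 was just under its limit, which bounds the fold at 1.26 or more in the direction of the circPan3+/+ array. Ccr10, the receptor for CCL28, had 3.07 and 2.95, both under the limits, so no fold is given. The circPan3+/+ value of Ccr10 stood in 35 rows of the table.

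Of the B cell receptor subunits, Cd79a had 5.06 in circPan3+/+ and 5.01 in circPan3-/- cells. These values were under the limits on both arrays, on the circPan3+/+ array by less than the last digit shown, and the difference was -0.05. Its partner Cd79b had 5.67 and 4.82, a difference of -0.85, and was the lowest of the members. The circPan3-/- value of Cd79b was under the limit, which leaves at least 1.08-fold. Taken at face value, the difference of Cd79b was -1.21 relative to the median of named genes, -1.32 after loess and -1.19 after quantile normalization, past 2-fold in each, but these values rest on a circPan3-/- signal not above the negative controls.

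The cluster annotated to Cd74 and Mir5107 read 8.76 with the circle and 10.52 without it. Both values were above the limits and the difference was 1.77, or 3.41-fold. It cannot be told from this row which transcript was measured, and besides B cells, Cd74 is expressed by myeloid cells and by epithelium.

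The mean difference of Pigr and Ccl28 was 3.10 and the median of the 5 B and plasma cell members was -0.12, so that the epithelial side stood 3.22 above the other in log2 units. The immune members ran from -0.85 for Cd79b to 0.55 for Jchain, and Pigr at 2.51 lay above that range. Ccl28 at 3.69 did so too, as did its bound of 1.62, but not with the limit at the 99th percentile, where it has no fold. Ccr10 and Cd79a lay under the limits on both arrays. This gap does not change when a constant is subtracted from all genes, and it was 3.13 after loess. With values under the limits replaced by bounds, and differences without a fold set at 0, it was 2.06. With the Cd74 and Mir5107 cluster counted on the immune side, it was 3.19 by the median and 2.95 by the mean. The set is small and was chosen for this contrast, so the gap describes these 7 rows.

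**Figure D2:**
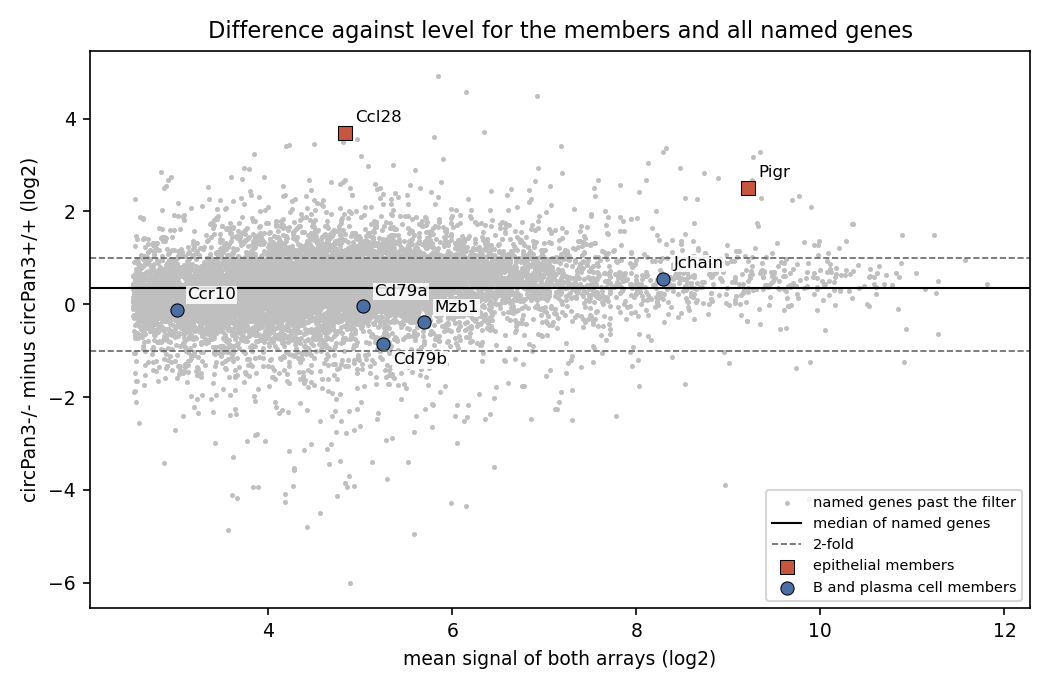
Difference between the arrays (log2, vertical axis) against the mean signal of both (log2, horizontal axis) for named genes past the filter (grey points), with Pigr and Ccl28 as squares and the B and plasma cell members as circles. The solid line marks the median of 0.36 and the dashed lines 2-fold; Pigr at 2.51 and Ccl28 at 3.69 lie in the upper fringe of the points, and the other 5 members lie between the dashed lines.

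Genes of each cell type were taken from lists of symbols, and these lists also hold members. The B cell list held 24 symbols, of which 22 were measured past the filter, Cd79a and Cd79b among them. Of these 22, 16 reached the control limit of neither array. The median difference of the list was -0.21, and also -0.21 over the 20 that are not members, against 0.36 for all named genes. As deposited, 0 genes of the list were higher and 2 lower by 2-fold or more (background 9.69% and 2.74%). After centring, 6 were at least 2-fold lower, but with bounds none was, in either direction. Fcmr, the gene of the IgM Fc receptor, had 5.20 and 3.74, and Btk, a kinase downstream of the B cell receptor, had 3.75 and 2.58, with no fold for either because the limits allow none. Ly6d stood at -0.92, at least 1.48-fold. The adaptor gene Blnk had 5.69 and 6.02 and was the only gene of the list above the limits on both arrays. The B cell surface gene Ms4a1, which encodes CD20, had 4.57 and 4.36, both under the limits. The transcription factor gene Bcl11a was highest at 0.64, again with no fold.

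Genes typical of plasma cells sat near the median of all named genes. Of 18 measured, with Jchain, Mzb1 and Ccr10 among them, 9 reached the limit of neither array and 6 exceeded both limits. The median was 0.40, and also 0.40 over the 15 that are not members. As deposited, 2 were at least 2-fold higher and 0 lower (background 9.69% and 2.74%). The 2 were the immunoglobulin G constant genes Ighg2b, with 7.02 in circPan3+/+ and 8.86 in circPan3-/- cells (3.57-fold), and Ighg1, with 4.38 and 5.70 (at least 1.56-fold). Ighm, the constant gene of IgM, had 6.60 and 6.27. Slamf7, a surface receptor of plasma cells and some other leukocytes, stood at -0.41 (at least 1.07-fold). Several genes of the list serve protein secretion in any secretory cell: Xbp1, a transcription factor of the unfolded protein response, had 7.19 and 7.54, and the folding genes Txndc5 and Creld2 stood at 0.74 and 0.53. The prolyl isomerase gene Fkbp11 had 0.91, between values under the limits.

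Immunoglobulin rows, which read the antibody genes themselves, were counted apart. There were 212 rows naming a single immunoglobulin segment or constant gene, and 202 passed the filter. Their median difference was 0.47, which became -0.02 after loess on level. Of the 202, 31 were at least 2-fold higher and 4 lower as deposited, beside 9.69% and 2.74% of named genes, but 10 and 8 after centring, and 8 and 9 after loess. A total of 162 rows exceeded the limits on both arrays, and among these 23 were at least 2-fold higher and 0 lower as deposited. The 4 lower rows had circPan3-/- values under the limit of 5.56, so the filter itself removes them and nothing is read from the 0. Differences of the 162 ran from -0.83 to 2.47 for Ighv13-2, a heavy chain variable segment with 5.40 in circPan3+/+ and 7.87 in circPan3-/- cells. The heavy chain variable segments had a median of 0.50 over 115 rows and the kappa segments one of 0.44 over 81 rows. Some variable segments are closely alike in sequence, so that probes may be shared between rows and the rows do not count as independent genes. Igha, the constant gene of IgA itself, had no row of its own: its cluster was annotated to 8 immunoglobulin symbols and had signals of 6.81 and 7.21. The cluster that holds the kappa constant gene Igkc with 13 other symbols had 9.18 and 9.23.

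**Figure D3:**
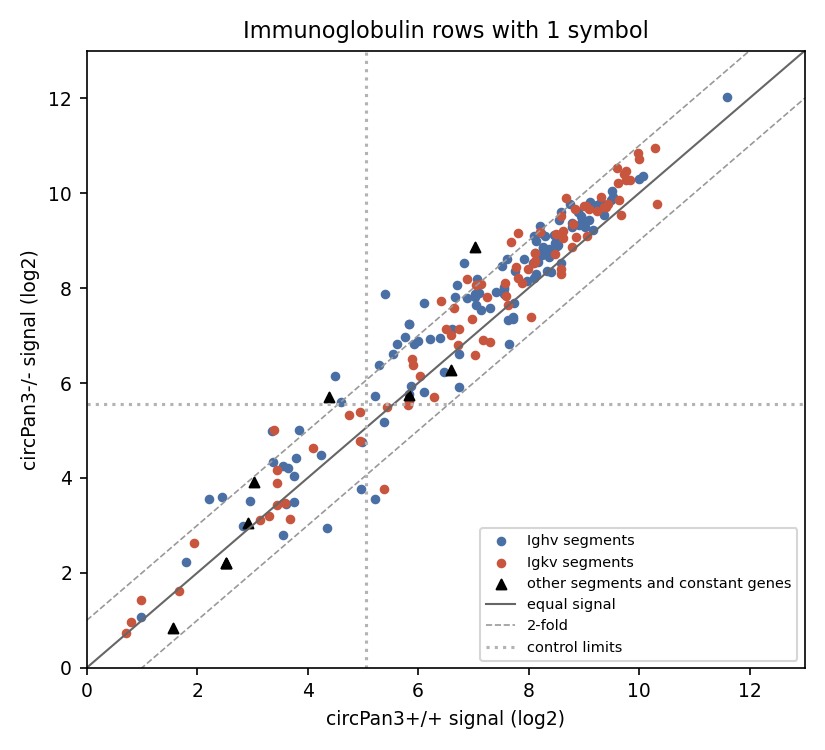
Signal in circPan3-/- (log2, vertical axis) against circPan3+/+ cells (log2, horizontal axis) for the 212 rows with a single immunoglobulin symbol; the solid line marks equal signal, the dashed lines 2-fold and the dotted lines the control limits. Most bright rows lie between the line of equal signal and the upper 2-fold line. Of the 162 rows above both limits, 23 are at least 2-fold higher, Ighv13-2 and Ighg2b the furthest. None of the 162 lies beyond the lower 2-fold line, because the lower rows past the filter fall under the circPan3-/- limit.

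Most chemokines and homing receptors of the mucosa lay under the control limits, so whether they follow Ccl28 as a group cannot be told. Of 15 measured past the filter, the members Ccl28 and Ccr10 included, 12 reached the limit of neither array and 2 exceeded both limits. As deposited, 3 were at least 2-fold higher and 0 lower (background 9.69% and 2.74%), with a median of 0.33. Ccl28 was the only one at least 2-fold higher with bounds. The other ligand of CCR10, Ccl27a, differed by 0.33 between values under the limits. Ccr3, a second receptor of CCL28, had 1.03 and 1.47 and did not pass the filter. Ccl25, the small intestinal chemokine that also attracts IgA plasma cells, had 5.17 in circPan3+/+ and 5.73 in circPan3-/- cells, and its receptor gene Ccr9 had 2.88 and 3.56, both under the limits. Glycam1 at 1.88 and Ccl20 at 1.09 were past 2-fold between values under the limits. Ccr6 at -0.68 and Cxcr5 at -0.44, also under the limits, and the lymph node homing receptor gene Ccr7 at -0.54, with 6.33 and 5.79, were the lowest.

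Genes for the path of the receptor through the cell leaned to the circPan3-/- side without reaching the difference of Pigr. The list of transcytosis machinery had a median of 0.76 over 17 genes, against 0.36 for all named genes, and 7 of the 17 reached the limit of neither array. As deposited, 4 were at least 2-fold higher and 0 lower (background 9.69% and 2.74%). There were 0 in either direction after centring or loess, and 1 was higher with bounds. Yes1, a Src family kinase that takes part in transcytosis of the receptor, had 4.54 and 5.85 (at least 1.73-fold). Ap1m2, an epithelial clathrin adaptor subunit, had 4.70 and 5.96 (at least 1.87-fold), and Rala, a small GTPase of the exocyst, 5.01 and 6.17 (at least 2.16-fold). Vamp8 at -0.17 and Cav1 at -0.07 were the members below 0.

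Receptors and factors known to raise Pigr in epithelial cells had a median of 0.26 over 18 genes. Of these, 1 was at least 2-fold higher and 2 lower (background 9.69% and 2.74%). Il13ra1, a chain of the receptor for interleukin 13 and interleukin 4, was far below the others, with 11.97 in circPan3+/+ and 7.78 in circPan3-/- cells, and its partner Il4ra had 6.69 and 6.14. Interleukin 4 is among the cytokines known to induce Pigr. Tlr4 stood at -1.51 and Tlr3, a receptor of double-stranded RNA, at 1.28, both between values under the limits. Il17rc, a chain of the interleukin 17 receptor, had 0.68 and the glucocorticoid receptor gene Nr3c1 0.77. Usf1 and Usf2, which encode proteins that can bind the E-box sequence, had differences of 0.14 and 0.48, the former between values under the limits. Genes that support IgA class switching had a median of 0.11 over 14 genes, with 1 at least 2-fold higher and 2 lower, beside the same background. Tgfb1, the cytokine that directs switching to IgA, had 6.58 and 5.29, a bound of at least 2.04-fold. Aldh1a1, an enzyme of retinoic acid synthesis, had 6.35 and 4.96 (at least 1.74-fold). Tnfsf13b, which encodes the B cell survival factor BAFF, had 3.07 and 4.14, under the limits.

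Genes of the MHC class II pathway, whose products CD74 escorts, were mostly higher as deposited, and Ctss was the only one at least 2-fold lower. Of 13 measured, 6 were at least 2-fold higher and 1 lower (background 9.69% and 2.74%), with a median of 0.78. After centring 2 were higher and 1 lower, after loess 1 and 1, and with bounds 4 and 1. H2-Ab1 had 7.55 in circPan3+/+ and 8.94 in circPan3-/- cells (2.61-fold), H2-Aa 5.13 and 6.44 (2.48-fold), and H2-DMb1, a subunit of the peptide exchange factor, 4.32 and 6.02 (at least 1.95-fold). Ctss, the protease that trims the CD74 protein and is abundant in myeloid cells, went the other way with 8.08 and 6.71 (2.57-fold lower in circPan3-/- cells). H2-Ob at -0.50 and H2-Oa at -0.16, which encode the exchange inhibitor found mainly in B cells, lay under the limits.

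**Figure D4:**
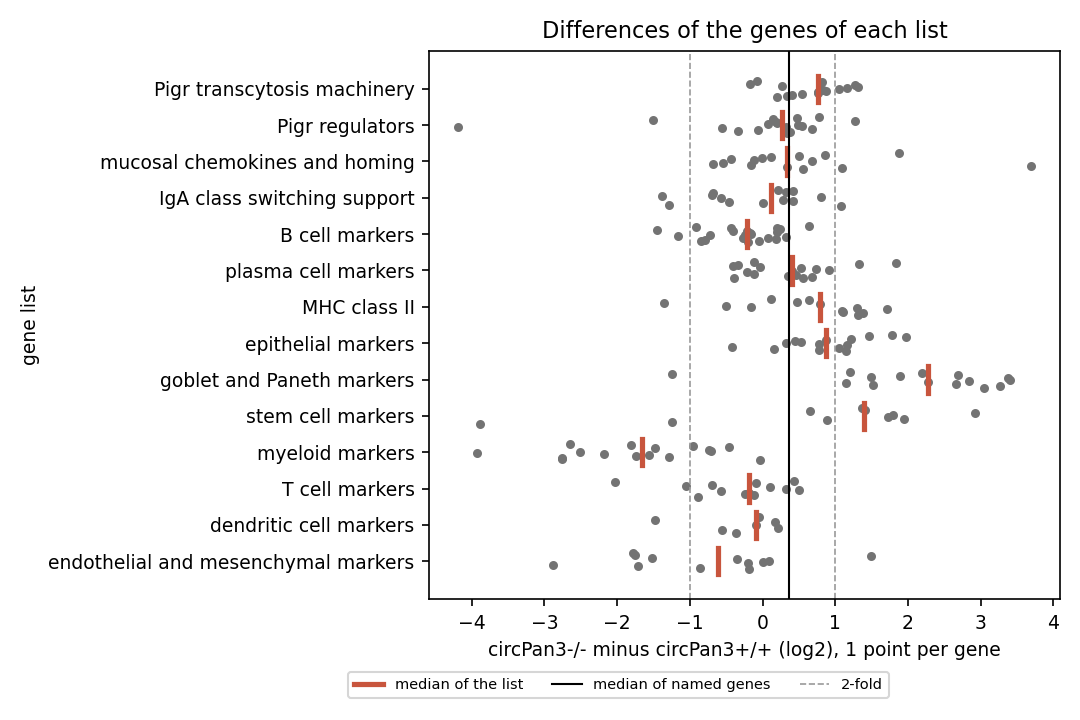
Difference between the arrays (log2, horizontal axis) for the genes of 14 lists past the filter, with 1 point per gene, thick bars at each list's median, a solid line at the median of named genes (0.36) and dashed lines at 2-fold. The B cell list centres at -0.21 and the plasma cell list at 0.40, while the goblet and Paneth list centres at 2.27 and the myeloid list at -1.66.

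Markers of other cell types differed between the same arrays. In a mixed RNA, fewer cells of a type and less RNA per cell cannot be told apart. Of 15 goblet and Paneth markers, 14 were at least 2-fold higher in circPan3-/- cells and 1 lower (background 9.69% and 2.74%), with a median of 2.27. After centring 12 were higher, after loess 10 and with bounds 12, with 1 lower in each. Their summed linear signal was 4286 in circPan3+/+ and 12852 in circPan3-/- cells. Klk1 stood at 3.40 and Ang4 at 3.37, and Reg3g, an antimicrobial lectin gene, at -1.24. General epithelial markers had a median of 0.87 over 15 genes, with 7 at least 2-fold higher and 0 lower, and a summed linear signal of 4134 and 6740. After centring or loess, 3 of them were at least 2-fold higher, with medians of 0.52 and 0.35. The transcription factor genes Elf3 and Cdx2 were highest, at 1.98 and 1.78, and Krt20 was the only one below 0, at -0.42. Pigr at 2.51 and Ccl28 at 3.69 thus moved on the same array as these lists, and the part of such cells in either difference was not tested.

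On the leukocyte side, myeloid markers had a median of -1.66 over 16 genes and a summed linear signal of 2537 and 1757. Of these, 0 were at least 2-fold higher and 11 lower (background 9.69% and 2.74%), and 4 were lower with bounds. S100a8 had 5.85 and 1.92 (at least 1.23-fold) and Cd68 6.97 and 4.21 (at least 2.66-fold). T cell markers had a median of -0.18 over 13 genes, with 2 lower, of which Gzma, at -1.05, was above both limits. Dendritic cell markers had -0.09 over 7 genes, with Ccl22 at -1.47, and endothelial and mesenchymal markers -0.61 over 12, with 5 lower and Acta2 higher at 1.49. The summed linear signal of the B cell list was 601 and 501, and that of the plasma cell list 1161 and 1814. B cell markers, the members Cd79a and Cd79b included, stood below the median of named genes in 21 of 22 cases. Of these 22, 16 reached the control limit of neither array. Also below the median were 16 of 16 myeloid, 11 of 13 T cell, 7 of 7 dendritic cell, and 11 of 12 endothelial and mesenchymal markers. The plasma cell list, with Jchain, Mzb1 and Ccr10 in it, split into 10 above and 8 below. Whether these leukocyte lists and the members share a source of RNA was not tested.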

How the data were processed

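RMA and Affymetrix Power Tools were used by the authors, per the submitters' processing notes; the sources used here give no version or build. The deposited values are log2 signals per transcript cluster (range -0.18 to 13.07). The log2 base was taken from that range, since the table states no unit. The number of arrays limits the precision.

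Of 72688 rows, 6732 were controls, 31269 had 1 symbol, 1481 several and 33206 none. Symbols were updated through Entrez identifiers and synonyms in RefSeq (GRCm38.p6). Predicted models, long noncoding and small RNAs were left out of the named genes. Coordinates are those of RefSeq and not of the array.

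With 1 array per genotype there is no test; called means at least 2-fold apart. Members and lists were chosen with earlier results of these data known. Genes named are the members, up to 3 per direction of each list, and Ccr3, Ccl27a, Ccr9 and Ccl25. Chosen after their values were seen were Ms4a1, Xbp1, Txndc5, Creld2, Usf1, Usf2, Ascl2, Sox9, Rgmb, Tnfrsf19, the immunoglobulin rows other than Ighg1, Ighg2b and Ighm, and the Cd74 and Mir5107 cluster. Alternatives were centring, loess (span 0.3, statsmodels 0.14.6), quantile normalization, the mean of a symbol's rows, 1.5-fold, bounds at the 95th and 99th percentile of 5222 negative controls, and other filters. The functions were tested on simulated data. The planned analysis without Cd74 equals the value given, since Cd74 had no row of its own.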

Additional observations from a re-analysis of the deposited data

How the results depend on the processing

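No paired analysis was possible because each genotype had 1 array, and for the same reason no replicate could be left out. The gap between Pigr and Ccl28 and the B and plasma cell members stayed past 2-fold in all alternatives run. The members were chosen for this contrast, so this is no test of the gap. Centring and the mean of a symbol's rows could not change it, since a constant cancels and each member had 1 row. With bounds at the 99th percentile of the negative controls, Ccl28 and the immune members other than Jchain had no fold. The gap there rests on Pigr alone. It ran from 1.20 with those bounds to 3.49 with only the immune members above the limit on at least 1 array. Mzb1 and Cd79b passed that last filter on the circPan3+/+ array alone, where they were higher. The filter itself thus widens the gap, and 3.49 is no check of it. Pigr was at least 2-fold higher throughout. Ccl28 was so except with bounds at the 99th percentile, where it has no fold and its difference is 0; then 1 member was at least 2-fold higher in place of 2. Adding the Cd74 and Mir5107 cluster, or leaving out Jchain, was tried after seeing the data. Taken at face value, with its circPan3-/- signal under the limit, Cd79b passed the threshold for lower genes after centring (-1.21), loess (-1.32), quantile normalization (-1.19) and at 1.5-fold (-0.85), so that 1 member was lower in each of these, in place of 0.

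The count of all named genes at least 2-fold higher, 1416 as deposited, was 563 after centring, 505 after loess, 630 after quantile normalization, 541 and 60 with bounds at the 95th and 99th percentile, and 4432 at 1.5-fold. That of lower genes, 400 as deposited, was 724, 720, 650, 78, 8 and 811 in the same order, and 254 with the filter at the upper quartile. Of 105 alternative list medians, 98 kept their side of 2-fold or 1.5-fold; stem cell markers fell short after loess, and endothelial and mesenchymal markers passed it after loess, as did MHC class II genes with the filter at the upper quartile. Control rows reach high values (99th percentile 8.07 and 8.14), so signals over background limit all but the brightest rows.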
